A study of Homo sapiens with 9 samples.

Results

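The 10 genes described here are transcription factors of the red cell and platelet lineages: GATA1, GATA2, KLF1, TAL1, NFE2, LMO2, GFI1B, BCL11A, MYB and FLI1. They were taken by symbol, and all 10 matched 1 Ensembl identifier each among the 57338 genes measured. They were chosen by their RPKM in the libraries labelled hPRM1 set against the other groups, which was already known, so the differences of these libraries from the others are given as a description without a p-value, while hPRM2 against the empty vector, which did not choose them, was tested. The cells were HEK293T, derived from human embryonic kidney and not of blood origin. They carried a pcDNA3.1 plasmid for EGFP alone (empty vector), EGFP fused to human protamine 1 (hPRM1) or EGFP fused to human protamine 2 (hPRM2), and live cells with a high EGFP signal were sorted 3 days after transfection. Each group had 3 libraries of the 3′ ends of polyadenylated transcripts, and the sources used here do not say whether the replicates were separate transfections, so p-values measure only the spread between these libraries. Levels are RPKM, reads scaled by gene length in kilobases and by the size of the library.

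GATA1 and GATA2 are zinc finger proteins that bind GATA sequences. GATA2 acts in stem and progenitor cells and in mast cells, and GATA1 takes its place as red cell and platelet precursors mature. TAL1, a basic helix-loop-helix protein, joins LMO2, a LIM domain protein that does not bind DNA itself, and LDB1 in a complex with GATA1. KLF1 switches on adult β-globin and other red cell genes, BCL11A represses the fetal globin genes, and GFI1B is a repressor needed in both lineages. NFE2 is a subunit of NF-E2 and drives the last steps of platelet formation. FLI1 is an ETS factor of megakaryocytes, and MYB keeps progenitors dividing.

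The library labels and the RNA did not match for hPRM1, and this bears on all that follows. PRM1 was listed at 0 in all 9 libraries, including the 3 labelled hPRM1, whereas PRM2 stood at 71224, 60050 and 36130 RPKM in the hPRM2 libraries and at 0 in the other 6. Of 12 marker genes of HEK293T cells, 8 were at 0 in all 3 libraries labelled hPRM1, and their summed level there was 6.97 to 11.1 RPKM, against 3288 to 4970 RPKM for the empty vector and 1512 to 5353 RPKM for hPRM2. HBB, HBA1 and HBA2 made up 83.2% to 86.6% of the summed RPKM of the libraries labelled hPRM1 and at most 0.00057% of that of any other. The libraries labelled hPRM1 also carry library numbers from another range than the other 6, and for these 3 the condition and a batch of libraries cannot be told apart. The reads on genes, estimated from the spacing of low RPKM values, were 7930000 to 10790000 for the empty vector, 4210000 to 5860000 for the libraries labelled hPRM1 and 1270000 to 2650000 for hPRM2.

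Upstream sequences of the genes are shown because GATA1, KLF1, TAL1 and GFI1B, which are known to act on one another in red cell precursors, were high in the same libraries. The RefSeq table (GRCh38.p14) held promoters for 7 of the 10 genes, 14 in all, and the 250 bases before each start were searched on both strands for the usual binding sequence of GATA factors, the letters GATA with A or T before them and A or G after them. Below, capitals mark a match, read as TATC with its neighbours where it lies on the other strand, and a sequence ends where an exon of GENCODE 29 begins.
GATA1, chrX:48786340-48786553, plus strand: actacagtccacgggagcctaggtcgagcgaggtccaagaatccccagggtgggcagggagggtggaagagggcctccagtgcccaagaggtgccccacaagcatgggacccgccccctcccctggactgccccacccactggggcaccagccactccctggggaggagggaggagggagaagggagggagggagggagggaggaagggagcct
KLF1, chr19:12887202-12887451, minus strand: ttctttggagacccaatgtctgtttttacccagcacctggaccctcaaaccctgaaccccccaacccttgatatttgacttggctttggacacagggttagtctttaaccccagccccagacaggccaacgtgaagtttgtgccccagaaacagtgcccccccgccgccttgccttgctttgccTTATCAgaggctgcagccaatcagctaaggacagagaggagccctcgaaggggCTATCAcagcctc
TAL1, chr1:47232336-47232585, minus strand: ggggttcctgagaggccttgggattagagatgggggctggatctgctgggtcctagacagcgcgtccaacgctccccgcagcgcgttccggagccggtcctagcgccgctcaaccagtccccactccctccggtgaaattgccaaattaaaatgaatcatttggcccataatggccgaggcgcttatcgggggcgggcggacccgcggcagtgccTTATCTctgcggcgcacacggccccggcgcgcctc
GFI1B, first of the 2 promoters listed, chr9:132945281-132945530, plus strand: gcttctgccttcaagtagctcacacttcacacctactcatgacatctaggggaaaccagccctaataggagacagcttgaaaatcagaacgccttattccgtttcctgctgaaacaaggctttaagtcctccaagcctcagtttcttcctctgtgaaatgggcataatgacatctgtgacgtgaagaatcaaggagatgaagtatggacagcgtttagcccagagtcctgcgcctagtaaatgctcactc
KLF1 had 2 matches, starting 66 and 13 bases before the start, TAL1 had 1 at 35 bases before the first of its 2 starts, and the second GFI1B promoter had 1 at 116 bases before its start. The GATA1, GATA2, BCL11A and MYB promoters had none of these letters. A match occurred in 3 of the 14 promoters of these genes and in 22.3% of the 35116 promoters of the table. The CACCC-type letters CCNCNCCC, of the kind KLF1 binds, occurred 4 times before the start of GATA1 and not at all before KLF1 or the first GFI1B start, and 53.4% of all promoters held them. The ETS core CCGGAA was present upstream of TAL1 alone, 165 bases before the first start, and in 14.5% of all promoters. The NF-E2 core, TGAGTCA or TGACTCA, was found in no promoter of these genes and in 4.2% of all. CAGATG, an E-box of the kind TAL1 complexes bind, was present before both GFI1B starts and in 12.2% of all promoters. These are matches of letters, not measured binding.

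In the libraries labelled hPRM1, 6 of the 10 genes were higher than in the empty vector: GATA1, KLF1, TAL1, NFE2, GFI1B and FLI1. GATA2 and BCL11A were lower, LMO2 was higher on average but not called, and MYB was too low to be tested. Genes that reached 1 RPKM in 3 or more of the 6 libraries were tested in limma, and a call needed an adjusted p no higher than 0.05 together with a 2-fold difference on log2(RPKM + 1). Of the 9 members tested, 6 were called higher and 2 lower. Over all 13588 genes tested, 12.9% were called higher and 62.5% lower, or 75.4% in either direction. The 2 groups did not overlap for 10 of the 10 genes, and for 80.8% of all genes tested. Since the list was made with this contrast known, nothing is read from these counts. GATA1, KLF1, NFE2 and GFI1B passed the filter through the libraries labelled hPRM1 alone. In these bulk libraries, fewer cells of a type and less RNA per cell cannot be told apart.

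**Figure D1:**
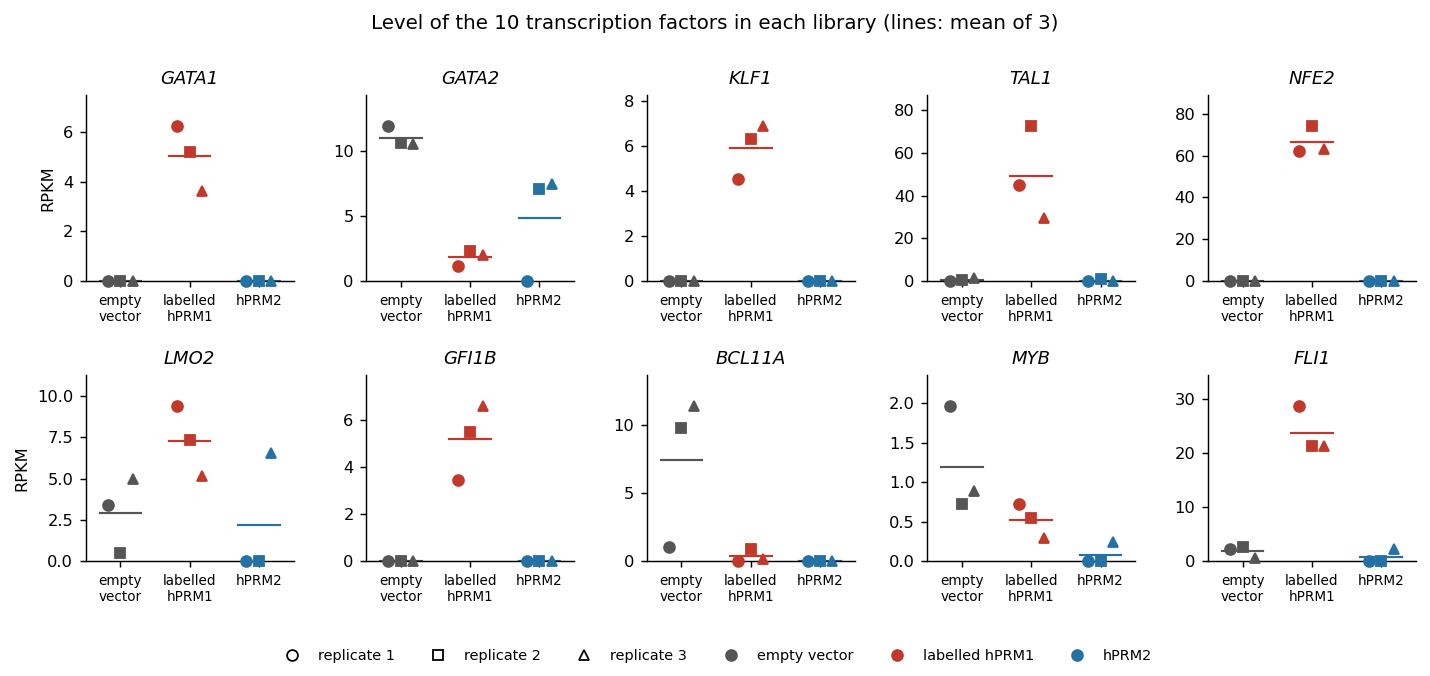
RPKM (y axis, linear, from 0, with its own range for each gene) of the 10 genes in the 3 libraries of each group, with a symbol for each replicate and a line at the group mean. GATA1, KLF1, TAL1, NFE2, GFI1B and FLI1 were above the other groups in all 3 libraries labelled hPRM1, GATA2 and BCL11A were highest in the empty vector, and all 10 genes were at 0 in hPRM2 replicate 1.

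Of the GATA factors, GATA1 (ENSG00000102145, chromosome X, 48786554 to 48794311, plus strand, GRCh38) was listed at 0 in all 3 empty vector and all 3 hPRM2 libraries. It stood at 6.25, 5.19 and 3.64 RPKM in replicates 1 to 3 of the libraries labelled hPRM1, a mean of 5.03 ± 1.31 (SD, n = 3). All 3 values lay above what a 0 allows elsewhere: 3 reads, the limit used here, correspond to at most 0.425 RPKM in an empty vector library and 2.65 RPKM in an hPRM2 library. Such limits cover counting error only. The level of GATA1 was at the 69.5th percentile of genes above 0 in the libraries labelled hPRM1. GATA2 (ENSG00000179348, chromosome 3, 128479427 to 128493185, minus strand) went the other way. It was at 11.9, 10.5 and 10.5 RPKM in the empty vector, lower at 1.15, 2.29 and 2.03 RPKM in the libraries labelled hPRM1, and 0, 7.06 and 7.43 RPKM in hPRM2. The difference of the libraries labelled hPRM1 from the empty vector was -2.11 ± 0.24 (SE) on log2(RPKM + 1), a 4.31-fold lower RPKM + 1, and the groups did not overlap. In RPKM, GATA1 was 5.44, 2.27 and 1.80 times as high as GATA2 in replicates 1 to 3 of the libraries labelled hPRM1. The order in the empty vector was the reverse. Within the libraries labelled hPRM1 this order depends on the division by length. With the longest transcripts GATA1 would have about 46, 27 and 24 reads there and GATA2 about 21, 30 and 33.

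TAL1 (ENSG00000162367, chromosome 1, 47216290 to 47232220, minus strand) was at 0.115, 0.506 and 1.29 RPKM in the empty vector, against 45.0, 72.6 and 29.4 RPKM in the libraries labelled hPRM1. In hPRM2 it was above 0 in replicate 2 alone, at 0.894 RPKM. The difference from the empty vector was 4.90 ± 0.41 (SE, log2(RPKM + 1)), or 29.9-fold, and TAL1 varied 2.47-fold among the libraries labelled hPRM1 themselves. LMO2 (ENSG00000135363, chromosome 11, 33858576 to 33892289, minus strand), its partner, had a far smaller range. It was at 3.38, 0.461 and 4.97 RPKM in the empty vector, against 9.42, 7.34 and 5.13 RPKM in the libraries labelled hPRM1, and 0, 0 and 6.52 RPKM in hPRM2. The lowest library labelled hPRM1 and the highest of the empty vector differed by less than the spread within either group. The difference was 1.27 ± 0.55 (SE, log2(RPKM + 1)) and was not called. Without replicate 3 of the empty vector it was 1.68 and was called.

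KLF1 (ENSG00000105610, chromosome 19, 12884422 to 12887199, minus strand) has a single transcript in GENCODE 29, so its RPKM can be turned into reads. It was listed at 0 in all 6 libraries of the empty vector and hPRM2 and stood at 4.51, 6.28 and 6.89 RPKM in the libraries labelled hPRM1, which are about 36, 36 and 49 reads. A 0 allows at most 0.278 RPKM in an empty vector library and at most 1.74 RPKM in an hPRM2 library. The mean of KLF1, 5.89 ± 1.24 RPKM (SD, n = 3), stood beside an RPKM of HBB, its best known target, that was 111161 to 197816 times as high. BCL11A (ENSG00000119866, chromosome 2, 60450520 to 60555154, minus strand) was at 1.04, 9.77 and 11.4 RPKM in the empty vector, at 0, 0.889 and 0.130 RPKM in the libraries labelled hPRM1 and at 0 in all 3 hPRM2 libraries. Replicate 1 of the empty vector thus lay close to the highest library labelled hPRM1, although the groups did not overlap. The difference was -2.33 ± 0.72 (SE, log2(RPKM + 1)), or 5.04-fold lower. Without replicate 1 or replicate 3 of the libraries labelled hPRM1 it was -2.15 and -2.24 and was no longer called. Without replicate 2 or replicate 3 of the empty vector, with a filter in 2 libraries that was added after seeing the data, it was -1.97 and -1.86 and was not called either.

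NFE2 (ENSG00000123405, chromosome 12, 54292111 to 54301121, minus strand) had the highest mean of the 10 genes in any group. It was at 62.3, 74.2 and 63.3 RPKM in the libraries labelled hPRM1, a mean of 66.6 ± 6.63 (SD, n = 3), at 0.083 RPKM in replicate 2 of the empty vector, which is about 1 read, and at 0 in the other 5 libraries. On log2(RPKM + 1) the difference from the empty vector was 6.04 ± 0.19 (SE). With so low a level in the empty vector this value depends on the number added before the logarithm, and it was 9.09 with 0.1 added and 3.83 with 5 added. FLI1 (ENSG00000151702, chromosome 11, 128686535 to 128813267, plus strand) was present in the empty vector at 2.22, 2.59 and 0.598 RPKM. It was at 28.7, 21.2 and 21.3 RPKM in the libraries labelled hPRM1 and at 0, 0 and 2.25 RPKM in hPRM2. The difference from the empty vector was 3.21 ± 0.36 (SE, log2(RPKM + 1)), or 9.27-fold, and the 3 libraries labelled hPRM1 lay within 1.36-fold of each other.

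GFI1B (ENSG00000165702, chromosome 9, 132944000 to 132991687, plus strand) was listed at 0 in all 6 libraries of the empty vector and hPRM2. It was at 3.43, 5.46 and 6.59 RPKM in the libraries labelled hPRM1. A 0 allows at most 0.279 RPKM in an empty vector library and at most 1.74 RPKM in an hPRM2 library. GATA1, KLF1 and GFI1B thus had similar means in the libraries labelled hPRM1 and zeros elsewhere, but GATA1 was highest in replicate 1 and the others in replicate 3. MYB (ENSG00000118513, chromosome 6, 135181315 to 135219173, plus strand) was low everywhere, at 1.97, 0.728 and 0.886 RPKM in the empty vector, against 0.727, 0.545 and 0.293 RPKM in the libraries labelled hPRM1 and 0, 0 and 0.238 RPKM in hPRM2. The 3 groups did not overlap, but the highest MYB value of the libraries labelled hPRM1 and the lowest of the empty vector were 0.727 and 0.728 RPKM.

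In the libraries labelled hPRM1 the order by mean RPKM was NFE2, TAL1, FLI1, LMO2, KLF1, GFI1B, GATA1, GATA2, MYB and BCL11A. The ranges of NFE2 and TAL1 overlapped, so their order is not fixed by these 3 libraries. FLI1 lay below TAL1 and above LMO2 in every library of the group, and LMO2, KLF1, GFI1B and GATA1 overlapped each other. NFE2 and TAL1 together made up 66.4% to 74.9% of the summed RPKM of the 10 genes. In the empty vector the order was GATA2, BCL11A, LMO2, FLI1, MYB, TAL1 and NFE2, with GATA1, KLF1 and GFI1B at 0, and only TAL1 and NFE2 among these neighbours did not overlap. In hPRM2 it was GATA2, LMO2, FLI1, TAL1 and MYB, all neighbours overlapping, with the other 5 at 0. Reads here come from transcript ends, so division by gene length lowers long transcripts. With the RPKM multiplied back by the longest transcript, which leaves a level scaled by library size alone (RPM), TAL1 (mean 233 RPM) stood above NFE2 (105 RPM) in the libraries labelled hPRM1, and BCL11A (54.5 RPM) above GATA2 (34.2 RPM) in the empty vector. The second order depends on the transcript: with the shortest ones BCL11A would have about 4, 42 and 63 reads in the empty vector and GATA2 about 154, 147 and 184.

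Several calls depended on how the libraries were scaled. With the deposited RPKM, the median difference from the empty vector, over all genes tested, was -1.72 on log2(RPKM + 1) for the libraries labelled hPRM1, and it was -0.12 after median-of-ratios rescaling and -0.30 after quantile normalization. Relative to this median, GATA2 at -2.11 and BCL11A at -2.33 stood only a little lower than the typical gene. After either rescaling GATA2 was at -0.37 and -0.56 and BCL11A at -1.30 and -1.25, both still negative and both no longer called. LMO2 moved to 2.85 and 2.67 and was then called higher. GATA1, KLF1, TAL1, NFE2, GFI1B and FLI1 were called higher under all 3 scalings, which says nothing of stability for GATA1, KLF1, NFE2 and GFI1B, at or near 0 in the empty vector. With LMO2, 7 members were called higher and none lower after either rescaling, beside 28.8% of all genes higher and 28.9% lower after median-of-ratios rescaling, and 25.6% higher and 32.3% lower after quantile normalization.

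**Figure D2:**
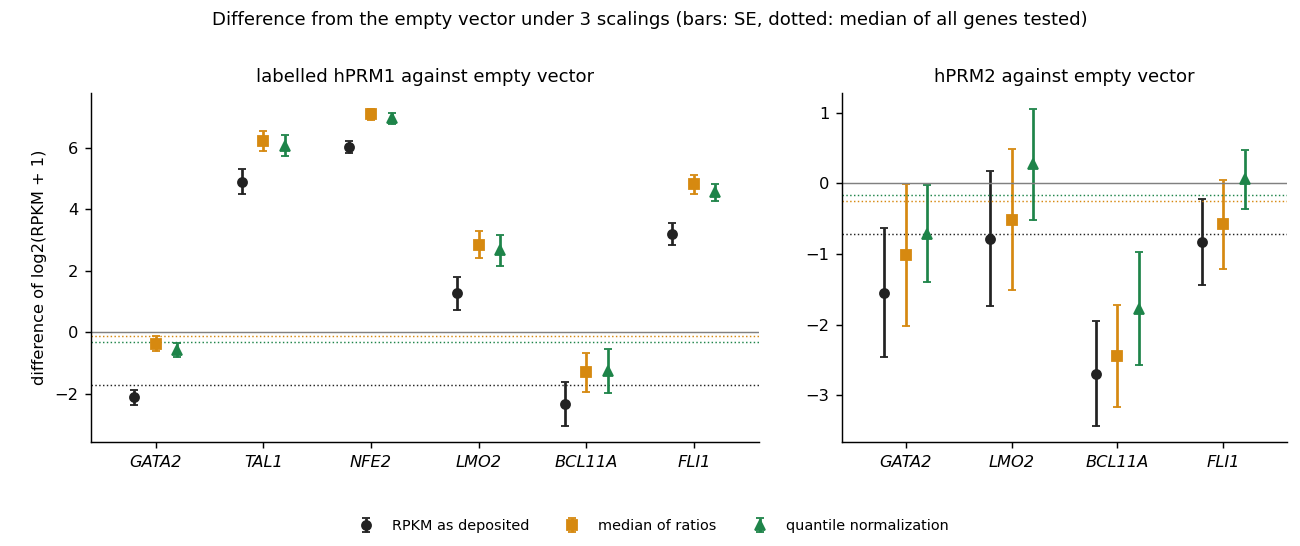
Difference of log2(RPKM + 1) from the empty vector (y axis), with SE as bars, for the libraries labelled hPRM1 (left, members above 0 in both groups) and hPRM2 (right, members tested), for the deposited RPKM (circles), median-of-ratios rescaling (squares) and quantile normalization (triangles); dotted lines mark the median of all genes tested. On the left TAL1, NFE2 and FLI1 stay far above 0 under all 3, LMO2 moves from 1.27 to 2.85 and 2.67, and GATA2 moves from -2.11 to -0.37 and -0.56.

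For hPRM2 against the empty vector, the comparison that did not choose the genes, 4 of the 10 were tested and none was called by limma, beside 2.74% of the 13126 genes tested. Among all 13126, 1.36% were called higher and 1.37% lower. BCL11A had the largest difference, -2.70 ± 0.75 on log2(RPKM + 1) (SE, 95% interval -4.46 to -0.94, adjusted p = 0.0951 in limma), a size that depends on the number added before the logarithm because hPRM2 was at 0. It passed the filter through the empty vector alone and could only come out lower, so nothing is read from its p-values. It was lower in 3 of 3 hPRM2 libraries, all at 0, than in any empty vector library. It was the only 1 of the 4 with an unadjusted p under 0.05 in limma. In a fit of all 9 libraries it was called, with an adjusted p of 0.0269 in limma. Over the other alternatives its adjusted p in limma was 0.0684 to 0.324. GATA2 was at -1.55 ± 0.91 (SE, 95% interval -3.71 to 0.61, adjusted p = 0.316 in limma), and its groups did not overlap. LMO2 was at -0.78 ± 0.95 (SE, interval -3.03 to 1.47, adjusted p = 0.611 in limma), and FLI1 at -0.84 ± 0.61 (SE, interval -2.27 to 0.60, adjusted p = 0.403 in limma), and after quantile normalization these 2 values turned positive, to 0.27 and 0.06. These intervals allow a change of several fold in either direction for LMO2, so the missing calls do not show that the groups are alike. The groups did not overlap for 3 of the 10 genes, GATA2, BCL11A and MYB, and for 35.9% of all genes tested.

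The zeros of hPRM2 need their own background. All 10 genes were at 0 in hPRM2 replicate 1, 2 were above 0 in replicate 2 and 4 in replicate 3. Of the 11304 genes that reached 1 RPKM in every empty vector library, 26.4% were at 0 in hPRM2 replicate 1, 9.56% in replicate 2 and 3.8% in replicate 3, and 1.88% were at 0 in all 3. Of the members, GATA2 and BCL11A meet that same condition, and BCL11A was among the genes at 0 in all 3. Replicate 1 had the highest estimated read total of the 3, 2650000, and the part of depth in these zeros was not tested. Without replicate 1, the difference of GATA2 between the libraries labelled hPRM1 and hPRM2 changed from -0.56 ± 0.89 (SE), not called, to -1.57, called lower, and without replicate 2 or 3 it was -0.07 and -0.03.

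The libraries labelled hPRM1 against hPRM2 also entered the choice of the genes, and their values are a description. Of 8 tested, GATA1, KLF1, TAL1, NFE2, GFI1B and FLI1 were called higher and none lower, beside 16% higher and 37% lower, or 53% in either direction, over the 11756 genes tested. The groups did not overlap for 7 of the 10 genes and for 62% of all genes tested. This contrast shares the libraries labelled hPRM1 with that against the empty vector. TAL1 differed by 5.24 ± 0.51 and FLI1 by 4.05 ± 0.58 (SE, log2(RPKM + 1)), and GATA1, KLF1, NFE2 and GFI1B were at 0 in all 3 hPRM2 libraries, so no fold is given for them. LMO2 differed by 2.05 ± 0.87 (SE) and was not called, with 6.52 RPKM in hPRM2 replicate 3 inside the range of the libraries labelled hPRM1. Without that replicate it was 3.02 and was called. GATA2 overlapped between these groups, and its sign turned to 0.59 after median-of-ratios rescaling and to 0.08 with 0.1 added before the logarithm.

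The 3 libraries labelled hPRM1 did not rank the same way for all genes. GATA1, LMO2, MYB and FLI1 were highest in replicate 1, GATA2, TAL1 and NFE2 in replicate 2, and KLF1 and GFI1B in replicate 3. Among the red cell markers above 0 in all 3, 7 of 8 were lowest in replicate 2, with ALAS2, the first enzyme of haem synthesis, 4.34-fold lower there than in replicate 3. All 7 platelet markers were highest in replicate 2, with ITGA2B, the platelet integrin αIIb, 4.77-fold above replicate 1. The members followed neither list as a group. TAL1 and NFE2 were highest in replicate 2, NFE2 by only 1.19-fold over its lowest library, whereas FLI1 was lowest there and highest in replicate 1. GATA1 was lowest in replicate 3, where 5 of 8 red cell markers were highest, while KLF1 and GFI1B were highest in replicate 3. KLF1 and GFI1B were lowest in replicate 1, where 6 of 7 platelet markers were lowest too. With 3 libraries these ranks are a description.

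**Figure D3:**
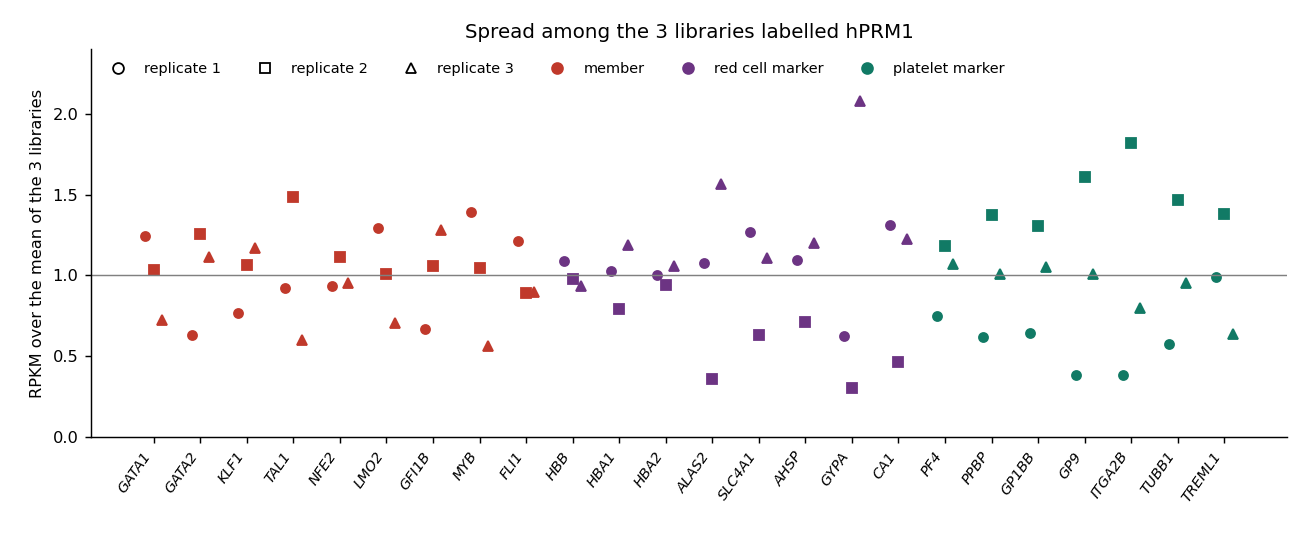
RPKM of each gene in the 3 libraries labelled hPRM1 over its mean in these libraries (y axis, linear, from 0; line at 1), for 9 members (BCL11A is left out because it was at 0 in replicate 1), 8 red cell markers and 7 platelet markers. Squares, replicate 2, lie at the top for every platelet marker and at the bottom for 7 of 8 red cell markers, while the members are mixed.

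Paralogs of the members were found in both directions. KLF2 was at 1.21, 4.83 and 6.92 RPKM in the empty vector but 73.9, 166 and 126 RPKM in the libraries labelled hPRM1. LYL1, the closest relative of TAL1 and a blood gene too, was at 0 in all 6 libraries of the empty vector and hPRM2 and at 61.1, 59.7 and 53.2 RPKM in the libraries labelled hPRM1, where its ratio to TAL1 was 1.36, 0.823 and 1.81. MYBL2, the cell cycle relative of MYB, ran opposite, with 134, 139.7 and 166 RPKM in the empty vector against 0.928, 2.29 and 1.60 RPKM in the libraries labelled hPRM1. GATA4, the most abundant GATA factor beside GATA2 in the empty vector at 10.4, 13.02 and 7.16 RPKM, was at 0 in all 3 libraries labelled hPRM1. So were GATA5 and GATA6, which were named after their values were seen. GATA3, also named after its values were seen, went the other way. It was at 11.6, 22.5 and 13.9 RPKM in the libraries labelled hPRM1 against 9.42, 8.26 and 8.68 RPKM in the empty vector. The difference of GATA3, 0.74 ± 0.28 (SE), was not called, and it was called higher after median-of-ratios rescaling. Of 35 paralogs, 29 were tested, 7 were called higher and 16 lower, beside 12.9% and 62.5% of all genes tested. LYL1 and ETS1 were under 1 RPKM in every empty vector library and passed the filter through the libraries labelled hPRM1 alone. Nothing is read from these counts. The median was -1.23 beside -1.72 over all genes. After median-of-ratios rescaling the counts were 12 higher and 7 lower, with a median of 0.35. In hPRM2 none of the 28 tested was called by limma, beside 2.74% of all genes tested. The median was -1.47 beside -0.72 over all genes. An unadjusted p under 0.05 in limma was found for 15 of them. The share over all genes is not given here, so nothing is read from that number.

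**Figure D4:**
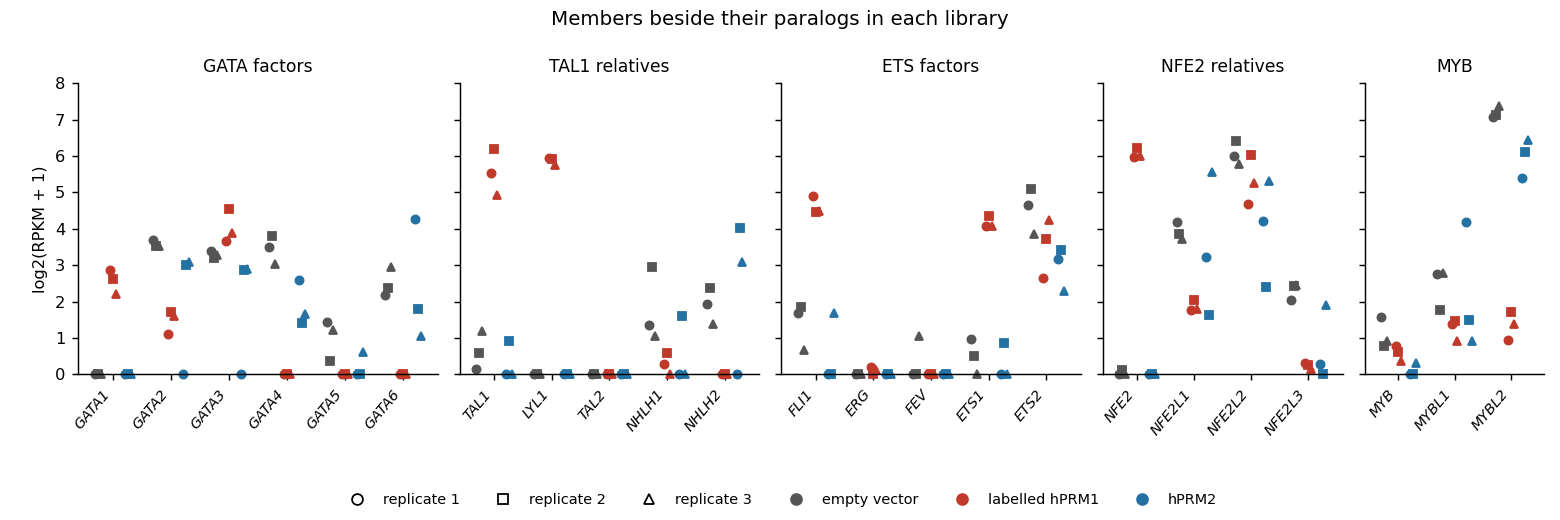
Level as log2(RPKM + 1) (y axis) of GATA1, GATA2, TAL1, FLI1, NFE2 and MYB beside their paralogs in each of the 9 libraries, with a colour for each group and a symbol for each replicate. GATA1, GATA3, TAL1, LYL1, FLI1, ETS1 and NFE2 lie highest in the libraries labelled hPRM1, and GATA4, GATA6 and MYBL2 lie lowest there.

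For each of the other members, the paralog most abundant in the empty vector is given, and these were spread over both directions. KLF13 was at 269, 269.7 and 265 RPKM in the libraries labelled hPRM1 against 62.7, 82.4 and 34.4 RPKM in the empty vector, and BCL11B, a T cell factor, was at 9.61, 16.9 and 12.7 RPKM against 1.61, 2.66 and 1.05 RPKM. LMO4 at 6.66, 8.15 and 5.75 RPKM and GFI1 at 1.19, 2.33 and 1.10 RPKM were lower than in the empty vector, where LMO4 was at 26.8, 33.2 and 22.2 RPKM and GFI1 at 4.44, 4.74 and 5.35 RPKM. NFE2L2, a stress response factor, at 24.5, 63.7 and 36.9 RPKM, and ETS2, at 5.24, 12.2 and 18.0 RPKM, overlapped their empty vector ranges of 53.8 to 84.8 and 13.5 to 33.4 RPKM. NHLH1, a neural relative of TAL1, was at 1.58, 6.77 and 1.08 RPKM in the empty vector, against 0.221, 0.513 and 0 RPKM. KLF13 and BCL11B were called higher, LMO4, GFI1 and NHLH1 lower, and the latter 3 calls were lost after median-of-ratios rescaling, where the differences of LMO4 and GFI1 turned from -1.85 and -1.23 to 0.18 and 0.33.

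The proteins with which these factors work were measured as well. LDB1, which bridges TAL1 complexes, was at 1.25, 2.31 and 1.37 RPKM in the empty vector, against 1.10, 1.29 and 1.04 RPKM in the libraries labelled hPRM1, a difference of -0.28 ± 0.23 (SE) that was not called. ZFPM1, the GATA1 cofactor FOG1, was under 1 RPKM in all libraries of both groups, at most 0.185 RPKM in those labelled hPRM1. CBFA2T3, a corepressor of TAL1 complexes, was at 5.50, 5.64 and 6.47 RPKM in the libraries labelled hPRM1 against 0.278 to 0.567 RPKM in the empty vector, and RUNX1 was at 1.86, 2.90 and 3.22 RPKM against 0.032 to 0.662 RPKM. RUNX1 was also at 17.1 RPKM in hPRM2 replicate 3 and at 0 in replicates 1 and 2. RBBP7, a histone-binding subunit of corepressor complexes, and ID1, an inhibitor of helix-loop-helix proteins, had the largest negative differences, -4.70 ± 0.26 and -4.57 ± 0.35 (SE). Of 39 partners, 38 were tested, 3 were called higher (LYL1, CBFA2T3 and RUNX1) and 19 lower, with a median of -1.22. These 3 were under 1 RPKM in every empty vector library and passed the filter through the libraries labelled hPRM1 alone. They could only come out higher, so nothing is read from these counts. The shares over all genes tested were 12.9% and 62.5%. After median-of-ratios rescaling, 14 were called higher and 5 lower, with a median of 0.77. In hPRM2 none of the 35 tested was called by limma, beside 2.74% of all genes tested. An unadjusted p under 0.05 in limma was found for 7 of them. The share over all genes is not given here, so nothing is read from that number.

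Genes that GATA1, TAL1 and KLF1 are known to switch on in red cell precursors were found in both directions with the deposited RPKM. Without the members on this list, 23 of 28 were tested, and 12 were called higher and 7 lower in the libraries labelled hPRM1. Over all genes tested, 12.9% were called higher and 62.5% lower. The median was 1.08 beside -1.72 over all genes, and 0.39 over those above 0 in both groups. Of the 23, 4 were at 0 in the whole empty vector group and entered the test through the libraries labelled hPRM1 alone. Nothing is read from these counts. After median-of-ratios rescaling 16 were called higher and 1 lower, with a median of 3.10, and after quantile normalization 16 higher and 2 lower. HBB was listed at 0 in the other 6 libraries and at 765727 to 892449 RPKM in those labelled hPRM1. HBA2 was at 1146418 to 1295699 RPKM there and at most 18.0 RPKM elsewhere, and its reads may be shared with the near-identical HBA1. CA2, a carbonic anhydrase, was lowest on the list, with 193, 171 and 157 RPKM in the empty vector, against 1.16, 1.13 and 0.522 RPKM in the libraries labelled hPRM1, and TFRC, the transferrin receptor of dividing red cell precursors, was at 15.7, 22.5 and 32.6 RPKM against 1.73, 0.342 and 4.30 RPKM. Of the 6 genes listed as markers of erythroid progenitors, CD34, KIT, HBD and RHAG were under 1 RPKM in every library labelled hPRM1. In hPRM2, 1 of the 17 targets tested was called, beside 2.74% of all genes tested. This was EPOR, the erythropoietin receptor, at 0 in all 3 libraries against 3.09, 4.33 and 4.03 RPKM in the empty vector (adjusted p = 0.0368 in limma). EPOR passed the filter through the empty vector alone and could only come out lower, so nothing is read from its p-value. After quantile normalization no target was called lower and 1 was called higher.

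Among the megakaryocyte genes that GATA1, FLI1, NFE2 and RUNX1 activate, 9 of 20 were tested in the libraries labelled hPRM1. Of these, 7 were called higher and none lower, beside 12.9% and 62.5% of all genes tested. The median was 2.39, and 1.40 over those above 0 in both groups. Of the 9, 4 were at 0 in the whole empty vector group and entered the test through the libraries labelled hPRM1 alone. Nothing is read from these counts. PF4, a platelet chemokine, was at 290.5, 460.2 and 416 RPKM in the libraries labelled hPRM1. In the empty vector it was above 0 in replicate 3 alone, at 4.45 RPKM. PPBP, another platelet chemokine, was at 8.07, 17.9 and 13.2 RPKM and at 0 in the other 6 libraries. GP1BB, a subunit of the platelet receptor for von Willebrand factor, and TBXAS1, thromboxane synthase, had the smallest differences, 0.59 ± 0.33 and 0.45 ± 0.29 (SE), and were not called. In hPRM2, TBXAS1 was the only 1 of 4 tested that was called, beside 2.74% of all genes tested. It was at 0, 0 and 2.97 RPKM against 28.97, 15.3 and 23.1 RPKM in the empty vector (difference -3.84, adjusted p = 0.047 in limma). TBXAS1 needed the empty vector to pass the filter, so nothing is read from its p-value. The call was lost after median-of-ratios rescaling.

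Transcription factors of other blood lineages were found in both directions in the libraries labelled hPRM1. Of 25, 22 were tested, 13 were called higher and 3 lower, beside 12.9% and 62.5% of all genes, with a median of 1.66. After median-of-ratios rescaling 18 were called higher and 1 lower. SPI1, IKZF1, IKZF3, PAX5 and RUNX1 were under 1 RPKM in every empty vector library. They passed the filter through the libraries labelled hPRM1 alone and could only come out higher. Nothing is read from these counts. SPI1, the master factor of myeloid and B cells, was at 0 in the other 6 libraries and at 37.4, 49.1 and 58.8 RPKM in those labelled hPRM1. IKZF1, a lymphoid factor, was at 25.9, 35.6 and 24.3 RPKM, against at most 0.183 RPKM elsewhere. MEIS1, a stem cell factor, was at 0.066, 0.092 and 0.117 RPKM against 5.95, 3.77 and 4.47 RPKM in the empty vector, and GFI1, given above, was next in order. Both SPI1 and IKZF1 thus stood above GATA1, KLF1 and GFI1B, and below NFE2, in RPKM in each of the 3 libraries. IKZF1 was also below TAL1 in each of them.

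Marker genes of mature blood cells were also high in the libraries labelled hPRM1. In the libraries labelled hPRM1, 7 of 7 tested red cell markers, 5 of 6 platelet markers, 8 of 8 neutrophil and monocyte markers and 8 of 8 lymphocyte markers were called higher, beside 12.9% of all genes tested. Of these, 4 red cell, 3 platelet, 4 neutrophil and monocyte and 8 lymphocyte markers were at 0 in the whole empty vector group. The neutrophil and monocyte markers S100A9, CSF3R and CD14 were under 1 RPKM in every empty vector library. All of these could be tested only through the libraries labelled hPRM1, so nothing is read from the counts. The summed RPKM of the neutrophil and monocyte markers was 3502 to 4435 in these libraries, at most 3.02 in the empty vector and at most 20.7 in hPRM2, and that of the lymphocyte markers was 634 to 878, 0 in the empty vector and at most 0.406 in hPRM2. The platelet markers summed to 341 to 602, 16.9 to 32.1 and 8.61 to 14.0 RPKM, and the red cell markers to 2060241 to 2266411, 3.09 to 18.2 and 2.16 to 16.3 RPKM. Markers of earlier or rarer cells had smaller sums in the libraries labelled hPRM1 than those of mature cells. Of 2 erythroid progenitor markers tested, 1 was called higher and 1 lower, beside 12.9% and 62.5% of all genes. Of 3 granulocyte precursor markers 2 were called higher, and of 3 basophil and mast cell markers 2 higher and 1 lower. Here 1 granulocyte precursor and 2 basophil and mast cell markers were at 0 in the whole empty vector group. MPO of the granulocyte precursor list and TFR2 of the erythroid progenitor list were under 1 RPKM in every empty vector library. Nothing is read from these counts. Erythroid progenitor markers summed to 1.88 to 10.3 RPKM, against 2.44 to 4.40 RPKM in the empty vector and 0 to 2.49 RPKM in hPRM2. Those of granulocyte precursors summed to 2.70 to 19.2 RPKM, against 0.213 to 2.86 and 0 to 0.425 RPKM. For both lists the sums overlapped those of the empty vector. Of the markers of basophils and mast cells, a list that includes GATA2, CLC stood at 46.1, 19.7 and 34.3 RPKM and was named after its values were seen, and the list summed to 25.4 to 49.7, 10.5 to 11.9 and 0 to 7.70 RPKM. The 10 members themselves summed to 139 to 196 RPKM in the libraries labelled hPRM1, 20.6 to 29.7 RPKM in the empty vector and 0 to 16.4 RPKM in hPRM2. The part of any of these cell types in the levels of the members was not tested.

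**Figure D5:**
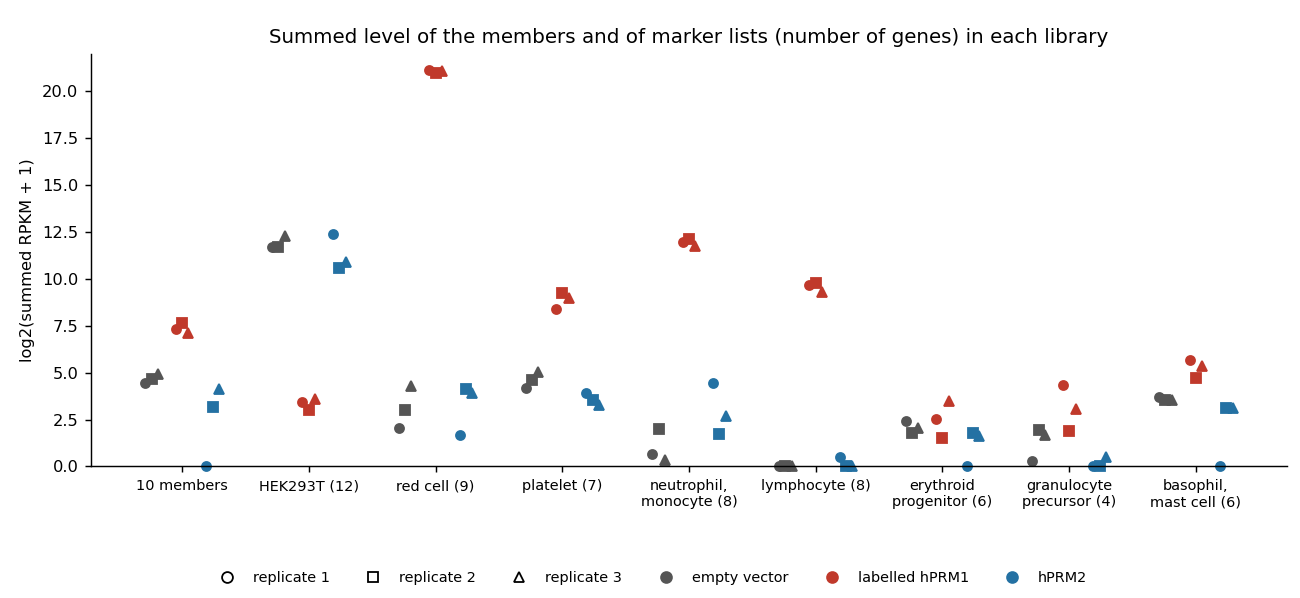
Summed RPKM of the 10 members and of 8 lists of marker genes, as log2(summed RPKM + 1) (y axis), in each of the 9 libraries, with the number of genes in each list in parentheses. The libraries labelled hPRM1 lie above the others for the members and for the red cell, platelet, and neutrophil and monocyte lists. The same holds for the lymphocyte list and the basophil and mast cell list. For the HEK293T list they lie below the others.

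Genes with a pattern like that of the members were many. Over the 9 libraries and 14728 genes, 808 had a Pearson r of at least 0.95 with NFE2 (5.49%), 774 with KLF1, 741 with GATA1, 713 with GFI1B and 694 with TAL1. FLI1 had 99 such genes, GATA2 212, BCL11A 11, MYB 2 and LMO2 0. These correlations describe mainly the contrast of the libraries labelled hPRM1 with the other 6, and the points of a group share a label and, in part, a depth. The gene most like NFE2 was ADA2 (r = 0.99996), that most like TAL1 was TNFRSF1B (0.994), that most like FLI1 was DOCK5 (0.989), that most like GFI1B was TNFRSF18 (0.99978) and that most like KLF1 was ITGB2-AS1 (0.99996), an antisense gene whose reads cannot be told apart from those of its partner without strand. For GATA2 it was SLC41A3 (0.994), for MYB NAXD (0.969) and for LMO2 POLD4 (0.939). For GATA1 and BCL11A it was a ribosomal protein pseudogene, RPL31P43 (0.99993) and RPL21P80 (0.970), whose reads may be shared with near-identical copies. Between members, GATA1, KLF1, TAL1, NFE2 and GFI1B correlated with each other at r of 0.963 to 0.998, whereas GATA2 correlated with each of them at -0.438 to -0.517.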

How the data were processed

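The authors made the RPKM values with nf-core/rnaseq (FastQC, Cutadapt, STAR and Salmon, versions not given in the sources used here; build hg38 per the labels): after removal of mitochondrial genes, they divided each count by the size of the library and by gene length in kilobases. They deposited 1 table of RPKM values for 57338 genes, without counts. Symbols came from a table of gene names (98.6% matched) and positions from GENCODE 29. Reads per library were estimated from single-transcript genes with 250 bases subtracted from each length.

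Groups followed the titles. Genes reaching 1 RPKM in 3 or more of 6 libraries were compared on log2(RPKM + 1) with limma 3.58.1 (trend, robust, no block) in R 4.3.3, which replaced the per-gene test of the methods, with Benjamini-Hochberg adjustment over the whole table. The fit was tested on simulated data with changes of 1.5 and 3 on log2(RPKM + 1). Of these, 37% and 82% were called for the libraries labelled hPRM1 against the empty vector. For hPRM2 against the empty vector 1% and 13% were called, and for the libraries labelled hPRM1 against hPRM2 0% and 18.2%. At most 0.0721% of unchanged genes were called. A missing call in a contrast with hPRM2 therefore does not show that the groups are alike. A fold change on log2(RPKM + 1) understates the change of low genes. The members, gene lists and tests were chosen with earlier results of these data known. Named genes were all members, the 2 highest and 2 lowest of each list, LDB1, ZFPM1, CBFA2T3 and RUNX1, the paralog of each member most abundant in the empty vector and the gene most like each member. Other settings tried were a pseudocount of 0.1 or 5, a minimum of 10 RPKM or none, median-of-ratios and quantile rescaling, all 9 libraries in 1 fit, the replicate number as a block, no fold threshold, reads without division by length, and each library left out (after seeing the data, also with a filter in 2 libraries). Tables and figures used Python 3.11.15, pandas 2.3.3 and matplotlib 3.10.9.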

Additional observations from a re-analysis of the deposited data

Results flagged for a closer look

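NFE2 drew attention because every library labelled hPRM1 lay above every empty vector library, while all 3 hPRM2 libraries were at 0. The difference of the mean from the empty vector was 66.6 RPKM for the libraries labelled hPRM1 and below 0 for hPRM2, where the empty vector itself had 0.083 RPKM in 1 library. The difference between these 2 effects was not tested, and the second rests on about 1 read.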

How the results depend on the processing

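The number of members called in the libraries labelled hPRM1 against the empty vector was 8, with 7 or 8 under the other pseudocounts, scalings and fits and 4 with a minimum of 10 RPKM, at which 4 were tested. Leaving out 1 library gave 3 to 8, the lowest without a library labelled hPRM1, because GATA1, KLF1, NFE2 and GFI1B are then at 1 RPKM or more in too few libraries to be tested. With a filter in 2 libraries, added after seeing the data, it gave 7 to 8. Against hPRM2 the number was 6, and 3 with a minimum of 10 RPKM, at which 3 were tested. Leaving out 1 library gave 1 to 7, and 6 to 7 with the filter in 2 libraries. For hPRM2 against the empty vector it was 0, and 1 (BCL11A) in the fit of all 9 libraries.

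Signs turned for LMO2 (0.27) and FLI1 (0.059) of hPRM2 against the empty vector after quantile normalization, and for GATA2 of the libraries labelled hPRM1 against hPRM2 with a pseudocount of 0.1 (0.078) and after median-of-ratios rescaling (0.59). The cause was not tested. With a pseudocount of 5, GATA1 was under 2-fold in both contrasts. The replicate numbers are shared by title only: same-numbered libraries had correlations of deviations from -0.078 to 0.080. With the replicate block, 8, 0 and 6 members were called and no call of a member changed. Over the whole table, hPRM2 against the empty vector gave 359 calls, 57 with the block, 2125 in the fit of all 9 libraries, 89 without a filter and 167 with a minimum of 10 RPKM. Leaving out 1 library gave 10 to 2257, the lowest without hPRM2 replicate 2 and the highest without hPRM2 replicate 1. With an empty vector library left out, 1 or 2 members were tested. The libraries labelled hPRM1 gave 10241 calls against the empty vector and 6234 against hPRM2, and 5837 and 3750 with a minimum of 10 RPKM. Leaving out 1 library gave 3419 to 6473 calls against hPRM2, with 3419 to 3650 without a library labelled hPRM1. The read totals of hPRM2 set how low a level its zeros can show.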
